A study of Mus musculus with 18 samples.

Results

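The 56 genes described here encode Toll-like receptors (TLRs), which sense microbial products, and the signalling proteins that lead from them and from the TNF and IL-1 receptors to the transcription factor NF-κB. A differential N6-methyladenosine (m6A) peak was given to a gene when the authors' annotation named the gene as the one holding the peak, or when the gene assigned to the peak contained the peak centre. By this rule 41 of the 56 genes held 96 differential peaks, of 28573 such peaks in 11895 genes in all. The share of all annotated genes that held a peak was not computed, so 41 of 56 cannot be set against it. m6A-seq was made from uteri of wild-type female ICR mice, 8 weeks old at purchase, on day 5 of pregnancy. In the Veh group, vehicle was injected from day 1 to day 4. In the LPS group, vehicle was injected on the same days and lipopolysaccharide (LPS, 0.5 mg/kg) was added on days 3 and 4. In the Mel+LPS group, melatonin (10 mg/kg, in 0.9% saline with 3% ethanol) was injected from day 1 to day 4 and the same LPS on days 3 and 4. Each of these 3 treatments had 3 replicates, each giving an input and an m6A immunoprecipitation library, 18 libraries in all. Which mouse or pool gave each library is not given in the sources used here.

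Differential peaks are held in 4 deposited tables, an up and a down table for each of LPS vs Veh (called LPS-up and LPS-down below) and Mel+LPS vs LPS (Mel-up and Mel-down). Every entry has a position on mm10 (GRCm38), a feature class and 1 log10 likelihood ratio (LLR), the authors' MACS2 score, which weighs a difference between the treatments against no difference. There is no value per library, so replicate error is unknown for every value, as is depth, and no test over mice was possible. The LPS-down table was used on chromosomes 1 to 9 only, which carry 30 of the 56 genes, so the other 26 could not be called down in LPS vs Veh. The lowest LLR listed in a table was between 1.01 and 1.04. The LLR value found most often in each table was 3.78 in 1450 of the 12023 LPS-up peaks, 3.63 in 734 of 6259 LPS-down, 5.42 in 479 of 13436 Mel-up and 3.85 in 1370 of 9211 Mel-down peaks. It is called the recurrent LLR below, and other values shared by many peaks are named where a gene's peak has one. Of the uterine genes set as a check, Pgr and Esr1 held differential peaks and Hoxa10 and Hoxa11 held none by the same rule. A gene without a differential peak may still be expressed and methylated.

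TLRs at the cell surface (TLR1, TLR2, TLR4 and TLR6) bind bacterial lipids and lipoproteins, and those in endosomes (TLR3, TLR7 and TLR9) bind nucleic acids. MyD88, by way of IRAK kinases, and TRIF carry the signal through TRAF ubiquitin ligases and the TAK1 complex to the IκB kinase. The IκB kinase marks the IκB inhibitors for degradation and frees NF-κB. m6A is written on mRNA by the METTL3-METTL14 complex, mostly in long exons and near stop codons, and affects the stability and translation of transcripts.

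The motif GGAC, the core most often methylated by the METTL3-METTL14 complex, was searched in the peaks whose centre lay on an exon of 1 GENCODE transcript per gene. The sequences below show the GGAC nearest the peak centre, in capitals, with 12 bases on each side, for receptor genes with peaks in their long coding exon, for the inhibitor gene Tnfaip3, for the signalling genes Traf6 and Birc3, and for Il1r1, whose exon peak was listed in both comparisons. They are read 5′ to 3′ on the transcript strand of the reference genome (GRCm38, GENCODE release 21 of the mouse annotation), not from these mice.
Tlr1 (chr5:64926852-64926879, minus strand; LPS-up peak): cctcaagcatttGGACctctcctttaat
Tlr2 (chr3:83836609-83836636, minus strand; LPS-up peak): caagtacgaactGGACttctcccacttc
Tlr3 (chr8:45398308-45398335, minus strand; LPS-down peak): cttgaccattctGGACttaagcaacaac
Tlr7 (chrX:167305296-167305323, minus strand; LPS-up peak): tgtcaccacctaGGACatgccttggtac
Tlr9 (chr9:106225401-106225428, plus strand; LPS-up peak): cctgctgaagctGGACctgtctcaaaat
Traf6 (chr2:101696932-101696959, plus strand; LPS-up peak): tcggaccctggaGGACaaggttgccgaa
Birc3 (chr9:7860709-7860736, minus strand; LPS-up peak): ttctactacataGGACctggagatagag
Tnfaip3 (chr10:19004501-19004528, minus strand; LPS-up exon peak): gcatgtattttgGGACtccagaaaacaa
Tnfaip3 (chr10:19002613-19002640, minus strand; Mel-down 3′UTR peak): gggtaggccctgGGACagtggcttcaag
Il1r1 (chr1:40293316-40293343, plus strand; LPS vs Veh down, Mel+LPS vs LPS up): tgccaaggtggaGGACtcaggatattac
In windows of 200 bases around the centre, GGAC stood on the transcript strand in 42 of 58 windows of the peaks given to the pathway genes by the rule (72.4%, exact binomial 95% interval 59.1% to 83.3%). With every peak centred on an exon of these genes, the basis on which all peaks were placed, it stood in 54 of 84 windows (64.3%, 53.1% to 74.4%) and in 9699 of 14927 windows of all genes (65.0%). On the opposite strand it stood in 44.0% of the 84 windows and in 44.3% of all windows. Whole peaks without GGAC included the 3 peaks of Tlr4 and the peak of Myd88. A match is a description of these letters and does not show a methylated base.

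In LPS vs Veh, 25 of the 41 genes held an up peak (61.0%), against 46.7% of all genes with a peak in any table. On chromosomes 1 to 9, where both directions can be read, 12 of 20 genes held an up peak (60.0%, against 43.3% of all genes) and 7 of 20 a down peak (35.0%, against 48.0%). In Mel+LPS vs LPS, 27 of 41 genes held an up peak (65.9%, against 55.6%) and 14 a down peak (34.1%, against 37.6%). The plot of shares by table gives these values side by side. No test was made of these shares. When an LLR of at least 3 was required, 9 of 41 genes held an up peak in LPS vs Veh (22.0%), below the 26.0% of all genes. At this score 4 of 20 genes held a down peak in LPS vs Veh (20%, against 23.9% of all genes), 7 of 41 an up peak in Mel+LPS vs LPS (17.1%, against 23.3%) and 7 of 41 a down peak (17.1%, against 20.9%).

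**Figure D1:**
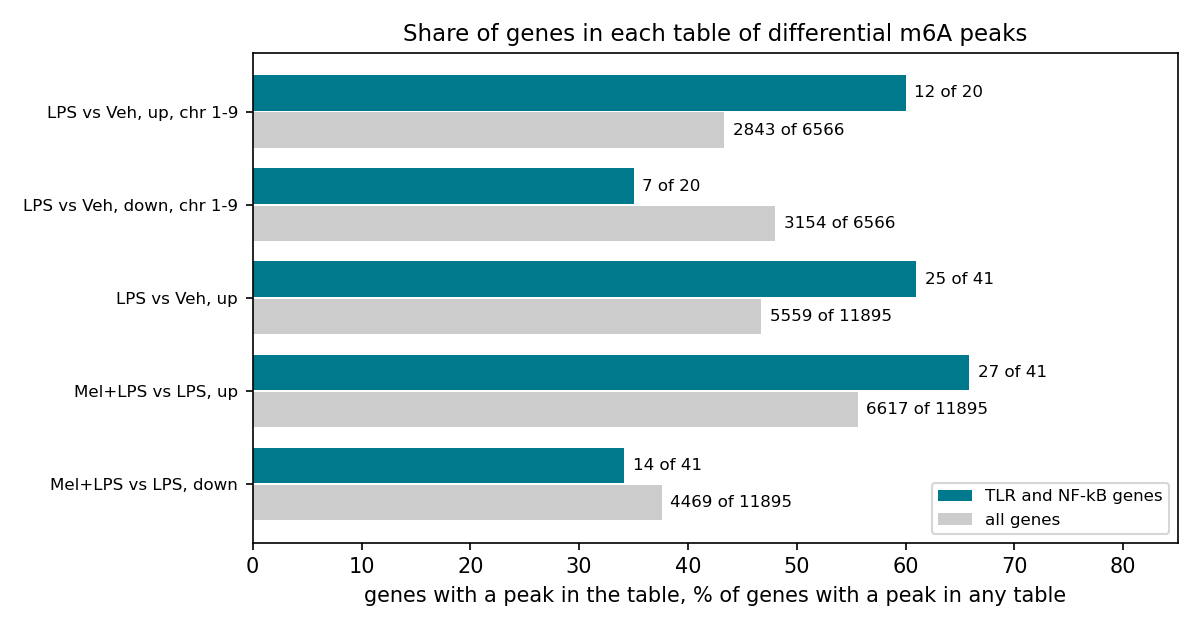
The bars show the percentage of genes with a peak in each table (x axis), for the TLR and NF-κB genes (teal) and for all genes (grey), with the counts beside them; shares are of genes with any differential peak, on chromosomes 1 to 9 where named. The pathway genes stand at 60.0% against 43.3% for peaks up and at 35.0% against 48.0% for LPS-down peaks on chromosomes 1 to 9.

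Counted by peaks on chromosomes 1 to 9, 20 peaks of the pathway genes were LPS-up and 9 LPS-down, a share of 69.0% up (exact binomial 95% interval 49.2% to 84.7%). The share over all 8539 peaks in genes was 48.6%. In Mel+LPS vs LPS, 30 were up and 15 down (66.7%, 51.0% to 80.0%), close to the 64.8% of all 16134 peaks in genes. The intervals cover counting error only, and several peaks of 1 gene are not independent. With an LLR of at least 3, 6 of the 9 LPS-down peaks of the pathway genes remained. Of their 42 LPS-up peaks on all chromosomes, 15 remained. The peaks of the pathway genes had a median LLR of 2.07 among those up in LPS vs Veh, against 2.76 for all peaks in genes, and 3.63, its recurrent value, against 2.57 among the 9 down. In Mel+LPS vs LPS the medians were 2.13 against 2.18 for up and 2.49 against 3.09 for down. The highest LLR of a pathway gene was 10.1, while the tables reach 101.7 for up and 221.6 for down in LPS vs Veh.

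The plot of LLR by gene shows how the peaks are spread over the genes. A single peak was held by 15 genes, 2 peaks by 11, 3 by 8, 4 by 3 (Tlr1, Tlr2 and Birc3), 5 by Ikbkb and 6 by each of Tlr7, Tnfaip3 and Il1r1. Peaks in both directions of LPS vs Veh were held by 5 of the 20 genes on chromosomes 1 to 9 (Tlr3, Tlr4, Ikbkb, Birc3 and Il1r1; 14.5% of all genes there), and in both directions of Mel+LPS vs LPS by 6 of 41 (Tlr7, Traf3, Traf6, Tnfaip3, Il1r1 and Ltbr; 13.4% of all genes). An up peak in both comparisons and no down peak was held by 8 genes (Tlr1, Tlr9, Cd14, Ticam2, Tab2, Rela, Ripk1 and Birc2), 19.5% of the 41 against 7.27% of all genes. Among these 8 genes, up peaks of the LPS vs Veh and Mel+LPS vs LPS comparisons overlapped in Tlr1 only. By the rule, 10 genes were in the Mel-up table and no other (Irak3, Map3k14, Chuk, Nfkbia, Nfkbie, Nfkbiz, Tradd, Cyld, Bcl10 and Il1b), 24.4% against 23.9% of all genes. In the LPS-up table and no other were 5 genes (Ticam1, Irak1, Irak4, Nfkb1 and Rel), 12.2% against 11.2% of all genes. Of these 3 sets, 5 of the 8, 6 of the 10 and 4 of the 5 genes lie off chromosomes 1 to 9, where no LPS-down peak could be called, and peaks on exons outside the rule put Irak1, Irak3, Irak4 (Mel-up, LLR 1.33), Nfkbie, Ripk1 (Mel-down, LLR 1.61) and Il1b into further tables.

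**Figure D2:**
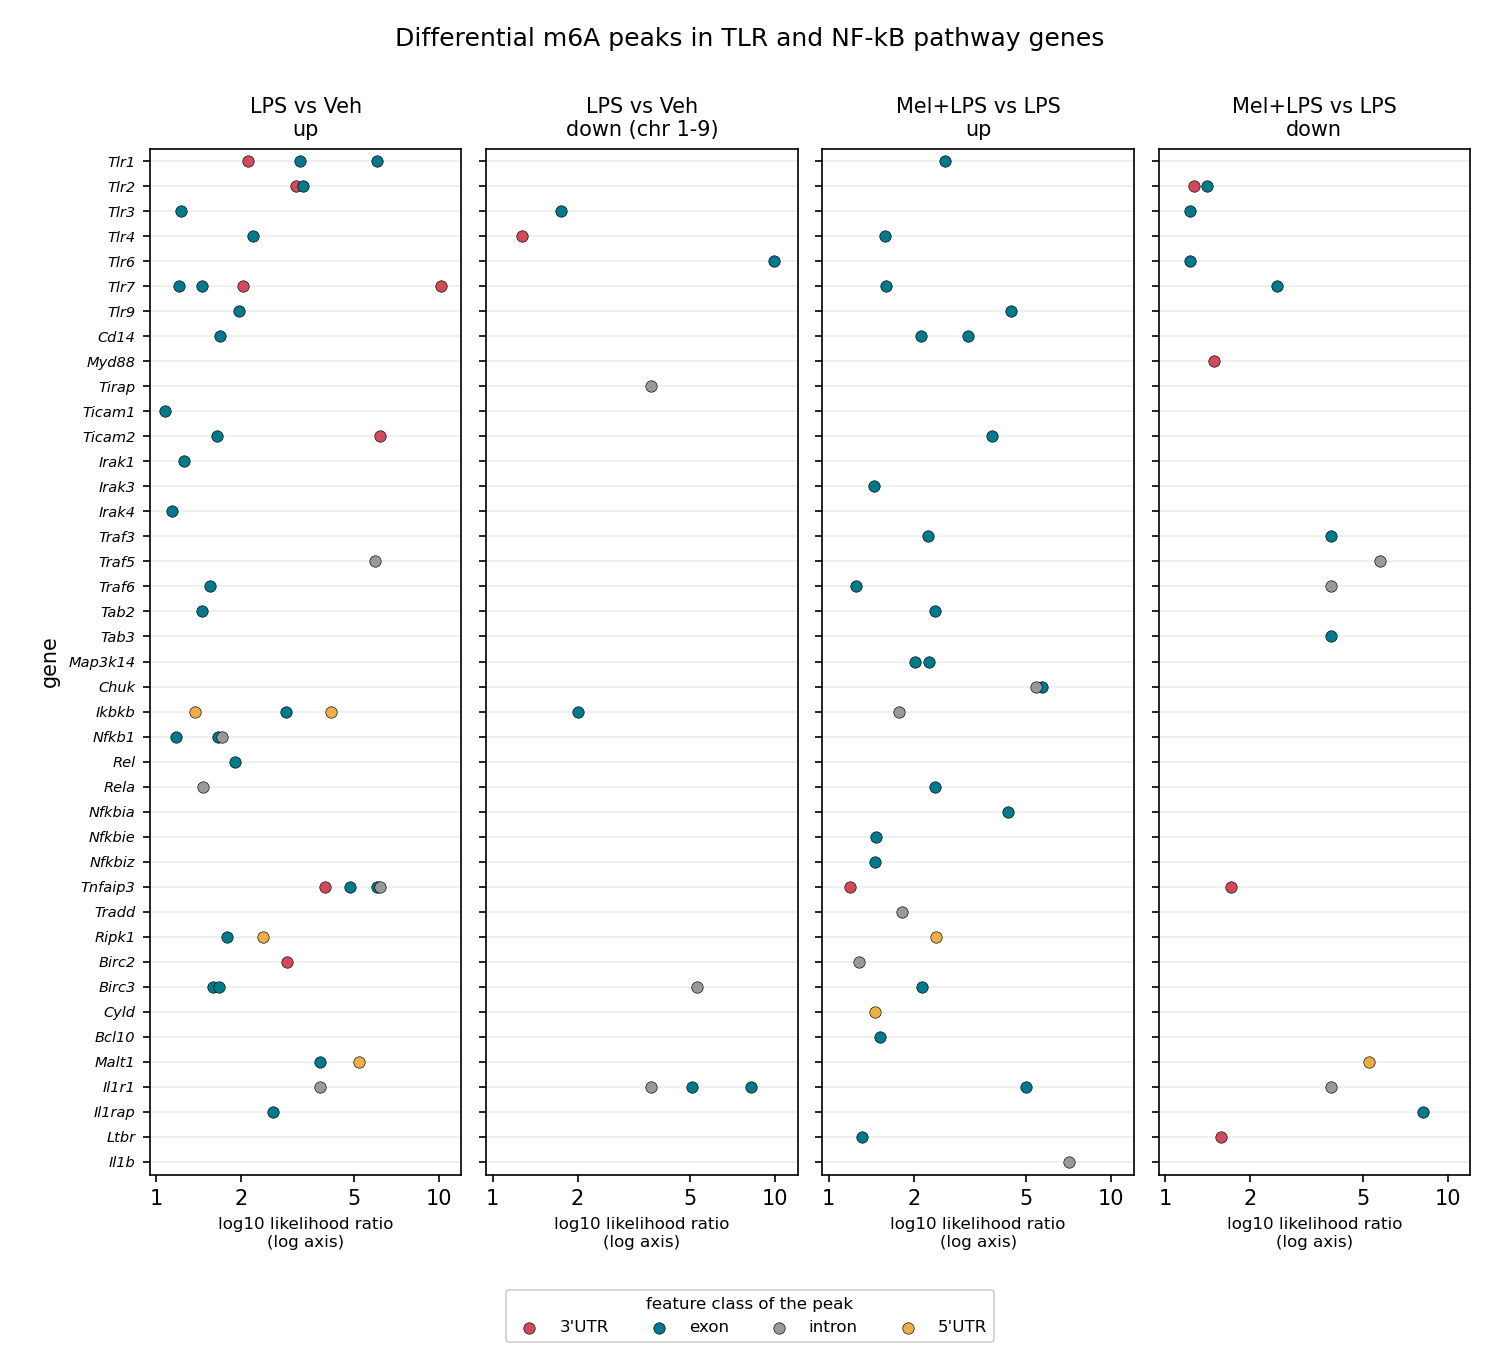
Each point is 1 differential peak of a TLR or NF-κB gene (rows), with its log10 likelihood ratio from the authors' tables on a logarithmic x axis, in 1 panel per table; colours give the feature class. Most points lie near the lower end of the scale, and the highest are Tlr7 (10.1, up in LPS vs Veh), Tlr6 (9.94, down in LPS vs Veh), Il1r1 (8.24, down in LPS vs Veh) and Il1rap (8.18, down in Mel+LPS vs LPS).

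Among the receptors, 8 of 9 genes held 27 peaks, of which 13 were LPS-up, 3 LPS-down, 6 Mel-up and 5 Mel-down. The 4 LPS-up peaks of Tlr7 and the 1 of Cd14 lie off chromosomes 1 to 9, where no LPS-down peak could be called. Ly96, which encodes the MD-2 partner of TLR4, held none. Tlr4 encodes the receptor for LPS itself and was measured by qPCR in the study. It held an up peak in its last exon (chr4:66839896-66840061, LLR 2.20) and, in its 3′UTR, a down peak (chr4:66841774-66841939, LLR 1.27) in LPS vs Veh, with centres 1878 bases apart. Its Mel-up peak (chr4:66840198-66840308, LLR 1.58) lay 3′ of the LPS-up peak in the same exon and did not overlap it. In the order given, the 3 values stood at percentiles 39.5, 9.36 and 26.2 of their tables.
Cd14, which encodes a coreceptor that passes LPS to TLR4, held 1 LPS-up peak (LLR 1.68) and 2 Mel-up peaks (2.12 and 3.11), all in its last exon. No peak of Cd14 was Mel-down.

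Tlr2, which encodes the receptor for bacterial lipoproteins, had the broadest peak of the list. The LPS-up exon peak ran over 1492 bases of the coding exon (chr3:83837003-83838494, LLR 3.30), and a further up peak (chr3:83836315-83836787, LLR 3.12) reached over the stop codon. Inside each lay a Mel-down peak, at chr3:83837582-83837967 (LLR 1.41) and chr3:83836348-83836591 (LLR 1.27). These stood at percentiles 15.4 and 8.28 of their table.
TLR1 and TLR6 pair with TLR2, and their genes are neighbours on chromosome 5. Tlr1 held 3 LPS-up peaks (LLR 6.02, 3.22 and 2.10) and 1 Mel-up peak (chr5:64926985-64927220, LLR 2.58), which shared 80 bases with the LPS-up peak at chr5:64926864-64927064. Tlr6 held the highest LPS-down value of the list, 9.94, in its last exon (chr5:64954658-64954845), and a Mel-down peak near its stop codon (chr5:64953174-64953354, LLR 1.221). By the rule the LPS vs Veh peaks of Tlr1 were up and that of Tlr6 down, but a further peak on a GENCODE exon of Tlr6 (chr5:64952135-64952236), annotated as intergenic and so outside the rule, was up (LLR 7.52).

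Of the endosomal receptors, Tlr7, which senses single-stranded RNA, had the highest value of the whole list. Its 3′UTR peak at chrX:167304940-167305054 was LPS-up with an LLR of 10.1. A further LPS-up peak over the stop codon (chrX:167305255-167305525, LLR 2.03) shared 159 bases with a Mel-down peak (chrX:167305367-167305555, LLR 2.49). Another 2 LPS-up peaks in its coding exon had LLRs of 1.20 and 1.45, and a Mel-up peak (chrX:167306403-167306502) had 1.59.
Tlr9, which senses CpG DNA, held an LPS-up exon peak (LLR 1.96) and a Mel-up one (LLR 4.40). Tlr3, which senses double-stranded RNA, held an up peak in exon 4 of 7 (chr8:45402848-45402993, LLR 1.23) and a down peak in exon 6 (chr8:45398295-45398402, LLR 1.75) in LPS vs Veh, with centres 4572 bases apart. Its Mel-down peak at LLR 1.23, also in exon 6, did not overlap the LPS-down peak.

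In Tlr1, Tlr2, Tlr4, Tlr6, Tlr7 and Tlr9, all 21 peak centres lay in the last exon, which is 2518 to 3572 bases long and holds all or most of the coding sequence. Within 200 bases of the stop codon lay 6 of these 21 centres, against 22.6% of all 15560 peaks placed on exons. Over the whole list, 60 centres of peaks given by the rule lay on exons of the GENCODE transcripts, 51 in coding sequence and 9 in the 3′UTR. The rule misses 3′UTR peaks that are assigned to a neighbouring gene. With every peak centred on such an exon, 86 peaks of the pathway genes were placed, 54 in coding sequence (62.8%) and 32 in the 3′UTR (37.2%). Of all 15560 peaks placed in the same way, 52.3% lay in coding sequence and 45.5% in the 3′UTR. Within 200 bases of the stop codon lay 24 of the 86 centres (27.9%), against 22.6% of all. The median length of the exon holding the centre was 2518 bases for the pathway genes and 1832 for all. The plot of positions on transcripts shows the peaks of the 15 genes with at least 2 of them.

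**Figure D3:**
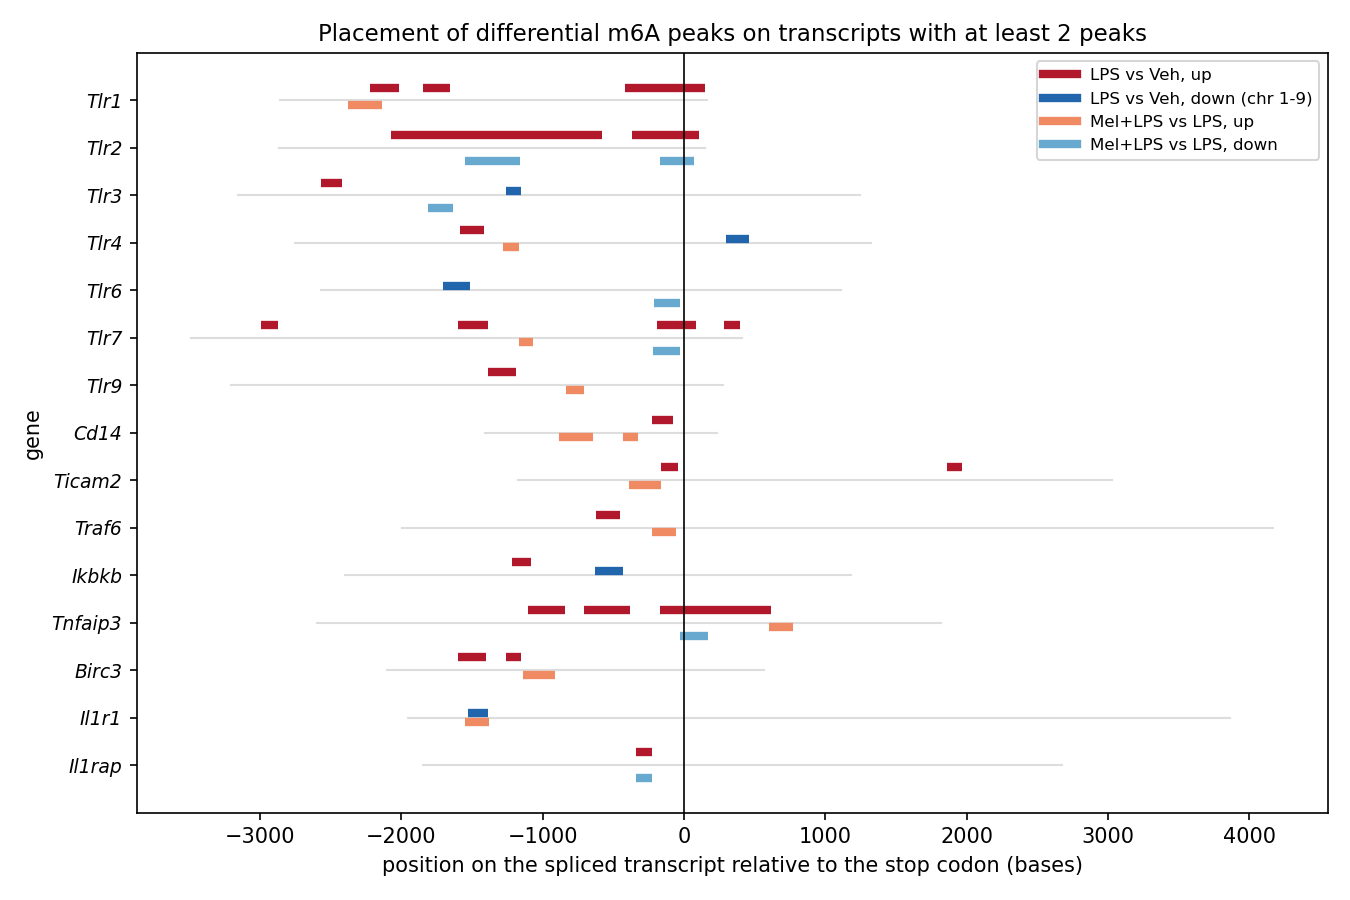
Bars show differential peaks at their deposited width, centred on their position on the spliced transcript relative to the stop codon (x axis, bases; 0 is the end of the stop codon), for each gene with at least 2 placed peaks (rows); colours give the table and grey lines the transcript. In the receptor genes most bars lie 5′ of the stop codon, and the Tlr2 bars up in LPS vs Veh contain those down in Mel+LPS vs LPS.

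The uterus was measured as a whole, so more or fewer cells of a type and more or less RNA per cell cannot be told apart, and a difference in transcript level cannot be told apart from one in methylation with these scores alone. Leukocytes express most of these receptors. Of 9 leukocyte markers, 3 (Ptprc, Adgre1 and Lyz2) held peaks, with LPS-up peaks in 3, LPS-down in 0, Mel-up in 3 and Mel-down in 2, while Cd68, Csf1r, S100a8, S100a9, Cd3e and Nkg7 held none. Of 6 epithelial markers 5 held peaks, with LPS-up peaks in 0, LPS-down in 2 (Cdh1, LLR 15.9, and Ltf), Mel-up in 1 (Cdh1, LLR 11.8) and Mel-down in 4 (Krt8, Krt18, Krt19 and Ltf). All 4 smooth muscle markers held peaks, LPS-up in 1, LPS-down in 2, Mel-up in 3 and Mel-down in 1, as did all 3 endothelial markers, LPS-up in 1, LPS-down in 0, Mel-up in 2 and Mel-down in 1. LPS-down peaks could be called on chromosomes 1 to 9 only. Of the markers with a peak, 1 leukocyte, 2 epithelial, 2 smooth muscle and 2 endothelial ones lie there. Of all genes with a peak, 46.7% held an LPS-up, 55.6% a Mel-up and 37.6% a Mel-down peak. On chromosomes 1 to 9, 48.0% held an LPS-down peak. The part of cell composition in these results was not tested.

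The adaptors and IRAK kinases held 9 peaks in 7 of 8 genes. Myd88, the adaptor of most TLRs and of the IL-1 receptor and also measured by qPCR in the study, held a single peak, in its 3′UTR (chr9:119336383-119336493), which was Mel-down with an LLR of 1.49. Its centre lay 483 bases past the stop codon. Tirap, which links MyD88 to TLR2 and TLR4, held an LPS-down intron peak at the recurrent LLR of 3.63. Outside the rule, GENCODE exons of Tirap held Mel-up peaks (LLR 1.64 and 2.26) and an LPS-down peak (LLR 1.51), all assigned to Gm39318. Ticam1 (TRIF) held an LPS-up exon peak with an LLR of 1.07, at percentile 0.166 of its table.
Ticam2, which encodes the TRAM adaptor between TLR4 and TRIF, held an LPS-up peak in the 3′UTR (chr18:46558356-46558462) with an LLR of 6.19, a value shared by 242 peaks of that table. Its coding exon held an LPS-up peak (LLR 1.64) and next to it, without overlap, a Mel-up peak (LLR 3.78). The kinase genes Irak1 and Irak4 held single LPS-up exon peaks (LLR 1.25 and 1.13), the second value shared by 77 peaks of that table. Irak3, whose product IRAK-M restrains the pathway, held a Mel-up last-exon peak (LLR 1.45). Irak2 held none.

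In the TRAF and TAK1 group, 6 of 10 genes held 12 peaks, none of them down in LPS vs Veh, where only genes on chromosomes 1 to 9 could be called. Traf6, the ubiquitin ligase downstream of the IRAK kinases, held neighbouring last-exon peaks, LPS-up (LLR 1.55) and Mel-up (chr2:101697274-101697443, LLR 1.25), and a Mel-down intron peak (chr2:101683547-101683704) at the recurrent LLR of 3.85. Traf3, which restrains the non-canonical pathway, held a last-exon peak up (chr12:111261648-111261959, LLR 2.25) and an exon 8 peak down (chr12:111252718-111252830, again 3.85) in Mel+LPS vs LPS. The exon peak of Tab3 down in Mel+LPS vs LPS had the same value.
Traf5 held an intron 7 peak that was LPS-up (chr1:192055465-192055664, LLR 5.94) and Mel-down (chr1:192055465-192055702, LLR 5.75). The annotation assigns this peak to the pseudogene Gstp-ps, which therefore is a further candidate for its reads. Other peaks described here are also assigned to another gene than the one named as holding them. Among them are those of Nfkb1 (Gm46827), Map3k14 (Gm34823), Traf3 (Amn), Irak1 (Mir5132), Irak3 (Helb), Tab3 (Gm39523) and Il1rap (Gm20319). The exon peak of Chuk (Erlin1) is another. Which gene gave their reads was not tested. Tab2, which binds ubiquitin chains for TAK1, held an LPS-up (LLR 1.45) and a Mel-up exon peak (LLR 2.38) in different exons. Map3k14, the NIK kinase of the non-canonical pathway, held 2 Mel-up exon peaks (LLR 2.02 and 2.27). Traf1, Traf2, Tab1 and Map3k7 held none by the rule.

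Of the 3 IκB kinase subunits, Chuk (IKKα) held 2 peaks, both Mel-up and near the top of the list there. They lay in exon 12 (chr19:44087770-44087960, LLR 5.67) and in intron 2 (chr19:44103503-44103619, at the recurrent LLR of 5.42). Ikbkb (IKKβ) held 5 peaks. In LPS vs Veh, 2 peaks classed as 5′UTR and 1 in exon 11 were up (LLR 1.37, 4.16 and 2.88), and 1 in exon 17 was down (chr8:22665809-22666005, LLR 2.0). The exon 11 up peak (chr8:22672260-22672391) and the down peak had centres 6418 bases apart. An intron peak of Ikbkb was Mel-up (LLR 1.77), and Ikbkg (NEMO) held none.
The NF-κB subunit genes held 6 peaks, 5 LPS-up and 1 Mel-up. Rela, which encodes p65 and was measured by qPCR in the study, held an LPS-up intron 4 peak (chr19:5639016-5639143, LLR 1.46) and a Mel-up exon 8 peak (chr19:5641668-5641805, LLR 2.38). Nfkb1 held 3 LPS-up peaks toward the 3′ end of the gene (LLR 1.18, 1.65 and 1.70), and Rel 1 in its last exon (LLR 1.90). Nfkb2 and Relb, the subunits of the non-canonical pathway, held none.

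Nfkbia, which encodes IκBα, held 1 peak, Mel-up and in exon 1 (chr12:55492189-55492403, LLR 4.30). Nfkbie and Nfkbiz also held single Mel-up exon peaks (LLR 1.47 and 1.46). By the rule none of the 3 held an LPS-up peak, but on a GENCODE exon of Nfkbie, outside the rule, lay an LPS-up (LLR 1.40) and a Mel-down peak (LLR 2.18), both assigned to Slc35b2. Nfkbib and Bcl3 held no peak by the rule.
Tnfaip3, which encodes the ubiquitin-editing inhibitor A20, held 4 LPS-up peaks. Their LLRs were 6.03 and 4.84 in one coding exon, 3.96 in the 3′UTR (chr10:19002117-19002900) and 6.19 in intron 1 (chr10:19015015-19015142), the last shared by 242 peaks of the table. Within the 3′UTR peak lay a Mel-down peak (chr10:19002560-19002758, LLR 1.71), and 13 bases of its 3′ end were shared with a Mel-up peak (chr10:19001964-19002129, LLR 1.19). The 2 Mel+LPS peaks had centres 613 bases apart. Cyld, a deubiquitinase that also restrains the pathway, held a single Mel-up peak (LLR 1.46), classed as 5′UTR with its centre in coding sequence.

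In the TNF receptor arm, 5 of 8 genes held 12 peaks, and Tnf, Tnfrsf1a and Tnfrsf1b held none by the rule. Birc3 (cIAP2) held 2 LPS-up peaks in exon 2 (chr9:7860660-7860767 and chr9:7860908-7861102, LLR 1.59 and 1.67) and an LPS-down peak in intron 1 (chr9:7870480-7870679, LLR 5.28). Its Mel-up peak (LLR 2.13) lay beside the first of these exon peaks without overlap. Birc2 (cIAP1) held an LPS-up peak in its 3′UTR (LLR 2.89) and a Mel-up intron peak (LLR 1.28, a value shared by 7 peaks). Ripk1 held 2 LPS-up peaks (LLR 2.38 and 1.78) and 1 Mel-up peak (LLR 2.40). Tradd held a Mel-up intron peak (LLR 1.82). Ltbr, the lymphotoxin receptor of the non-canonical pathway, held 2 peaks in Mel+LPS vs LPS, up in exon 9 (chr6:125307822-125307939, LLR 1.31) and down in the 3′UTR (chr6:125306547-125306741, LLR 1.58), with centres 1236 bases apart.
Of the CARD, BCL10 and MALT1 genes, Malt1, a paracaspase that acts with BCL10, held a peak classed as 5′UTR with the same bounds in both comparisons (chr18:65448936-65449195). It was LPS-up (LLR 5.20) and Mel-down (LLR 5.29). Its LPS-up exon 13 peak had the recurrent LLR of 3.78. Bcl10 held a Mel-up last-exon peak (LLR 1.52), and Card10 held none.

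The 3 genes of the IL-1 arm held 9 peaks by the rule. Il1r1, the signalling receptor of IL-1, held peaks in all 4 tables. In LPS vs Veh, 2 exon peaks were down. They lay in exon 6 (chr1:40293259-40293394, LLR 5.10) and exon 8 (chr1:40294880-40295017, LLR 8.24), and the exon 6 position was Mel-up (chr1:40293238-40293405, LLR 5.01). Its intron peaks had only recurrent LLRs. In intron 4 (chr1:40237697-40237881) they were 3.78 (LPS-up) and 3.85 (Mel-down), and in intron 11 (chr1:40304579-40304743) 3.63 (LPS-down).
Il1rap, the coreceptor, held a last-exon peak with the same bounds in both comparisons (chr16:26714733-26714844), LPS-up (LLR 2.58) and Mel-down (LLR 8.18, the highest of the list in that table). Outside the rule, a GENCODE exon of Il1rap held a Mel-up peak classed as 3′UTR (chr16:26701571-26701727), at the recurrent LLR of 5.42 and assigned to Gm20319. Il1b, the cytokine, held a Mel-up intron peak (chr2:129365765-129365951, LLR 7.11, the highest of the list there). The annotation assigns that peak to the antisense gene Il1bos, and the peaks carry no strand, so its reads cannot be given to either gene.

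The positions with overlapping peaks in both comparisons, 11 pairs of peaks in 8 pathway genes, are drawn with both values in the plot of positions listed in both comparisons. The LPS libraries enter both comparisons, so the values of a pair are not independent. Overlapping pairs were not counted over all genes, so whether 11 pairs in 8 genes are many or few was not tested. The pairs up in both comparisons were those of Tlr1 and the 13-base overlap of Tnfaip3.

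**Figure D4:**
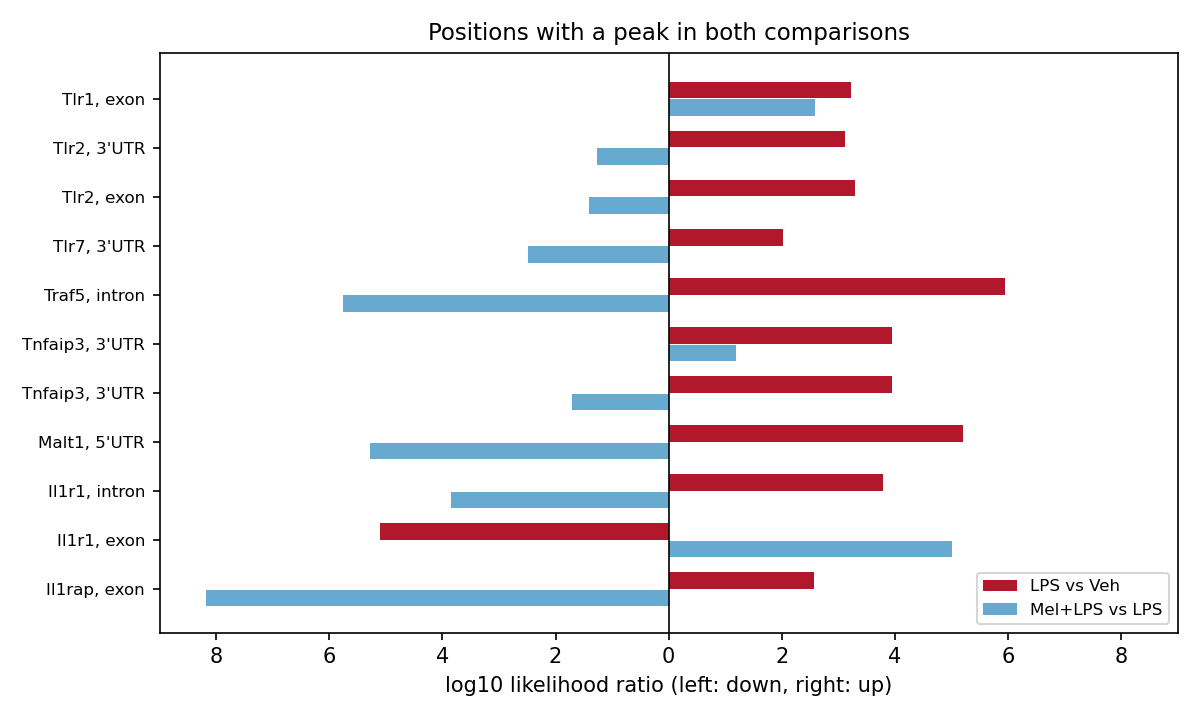
Bars give the log10 likelihood ratio from the authors' tables at each position with overlapping peaks in LPS vs Veh (red) and Mel+LPS vs LPS (blue), to the right for up and to the left for down; rows name the gene and the feature class. Values run from 1.19 (Tnfaip3, up in Mel+LPS vs LPS) to 8.18 (Il1rap, down in Mel+LPS vs LPS), and the 3′UTR peak of Tnfaip3 that is up in LPS vs Veh appears in 2 rows.

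By the authors' classes, 60 of the 96 peaks were exon peaks (62.5%, exact binomial 95% interval 52.0% to 72.2%), 16 intron (16.7%, 9.84% to 25.7%), 13 3′UTR (13.5%, 7.41% to 22.0%) and 7 5′UTR (7.29%, 2.98% to 14.4%). Over all 28573 peaks in genes the shares were 56.6%, 24.6%, 12.8% and 5.30%. The class and the peak centre can differ, since a peak takes the class of a feature that it only touches. Of the 13 peaks classed as 3′UTR, 4 had their centre in coding sequence, in Tlr1, Tlr2 and Tlr7. Of the 7 peaks classed as 5′UTR, 0 had their centre in the 5′UTR of the GENCODE transcript. In 1 of them (Cyld) it lay in coding sequence, and in 6 off the exons of that transcript. Of the 60 exon peaks, 14 had their centre off the exons of the GENCODE transcript, among them the peaks of Rela (exon 8), Nfkbia and Il1r1 (exon 8).
A 3′UTR class names no gene in the annotation, so a 3′UTR peak assigned to a neighbouring gene is outside the rule. On GENCODE exons of the 56 genes lay 28 further peaks outside the rule, in 17 genes, and 22 of the 28 were classed as 3′UTR. They comprised 8 LPS-up, 4 LPS-down, 13 Mel-up and 3 Mel-down peaks. With them, 4 more genes held a peak (Bcl3, Map3k7, Tnfrsf1b and Traf2), and 11 of the 56 genes still held none (Ly96, Irak2, Traf1, Tab1, Ikbkg, Nfkb2, Relb, Nfkbib, Tnfrsf1a, Card10 and Tnf).
Tnfrsf1b, which encodes TNF receptor type 2, held 2 LPS-up peaks in its 3′UTR (LLR 3.63 and 1.56), assigned to Vps13d. The 3′UTR of Il1r1 held 2 LPS-down peaks, at chr1:40313571-40313753 (LLR 1.26) and chr1:40315554-40315951 (LLR 2.55). Each overlapped a Mel-up peak, at chr1:40313174-40313802 (LLR 2.87) and chr1:40315521-40315861 (LLR 2.96). With these, 4 exon or 3′UTR peaks of Il1r1 were LPS-down and 3 Mel-up, and none was in the opposite table of its comparison. The 3′UTR of Il1b also held an LPS-down peak (chr2:129364924-129365099, LLR 2.28) that overlapped a Mel-up peak (chr2:129364872-129365039, LLR 1.92), both assigned to Il1bos. The other pairs of overlapping peaks found in this way were up in both comparisons. In the 3′UTR of Irak1 an LPS-up peak (chrX:74015133-74015378, LLR 2.02) overlapped a Mel-up peak (chrX:74015044-74015214, LLR 1.26), and in Irak3 an LPS-up peak (chr10:120142443-120143014, LLR 2.22) overlapped the Mel-up last-exon peak (LLR 1.45).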

How the data were processed

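Uterine RNA was fragmented to about 100 nt and immunoprecipitated with an m6A antibody. Per the labels and methods, reads were trimmed with Fastp, aligned to mm10 with STAR 2.5.2a, called with exomePeak2, compared with MACS2 and annotated with ChIPseeker 1.22.1. The value used is the score deposited by the authors, a log10 likelihood ratio per peak and comparison. How the 3 replicates and the input entered it is not given in the sources used here, nor is a depth per library.

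The members and lists were chosen with earlier results of these data known. Every member with a peak is described, with positions for Tlr4, Myd88 and Rela, for members with both directions in a comparison or overlapping peaks, and for the 3 highest scores per table. Peak centres were placed on 1 GENCODE transcript for each of 21842 genes, the principal isoform preferred. Gene roles were grouped by hand. No test was made. Shares have exact binomial intervals. On simulated data made with the same rule, the assignment was right for 100% of 2000 peaks and the transcript position for 100% of 500. This checks the code, not whether a real peak belongs to its gene. Alternatives were stricter scores, other rules of assignment, overlap and motif, joined peaks, and omission of introns or of the most frequent score. Markers of uterus, leukocytes, epithelium, smooth muscle and endothelium and other pathway genes were counted by the same rule. Python 3.11.15, pandas 2.3.3, scipy 1.17.1 and matplotlib 3.10.9 were used.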

Additional observations from a re-analysis of the deposited data

How the results depend on the processing

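With an LLR of at least 3, an up peak was held by 9 genes (15 peaks) and a down peak by 4 genes in LPS vs Veh, and by 7 genes (8 peaks) and 7 genes (7 peaks) in Mel+LPS vs LPS; both directions were held by 1 gene in each comparison, and the 3′UTR share was 0% in the tables of LPS-down, Mel+LPS-up and Mel+LPS-down peaks. At 6 or more, the counts in these 4 tables were 4 genes (5 peaks), 2 (2), 1 (1) and 1 (1), and the 3′UTR shares 40.0%, 0%, 0% and 0%. With the gene after the slash only, which names exons and introns, the 3′UTR share was 0% in every table. With peak centres on GENCODE exons it was 33.3% for LPS-up peaks and 36.4% for Mel+LPS-up peaks. DRACH (A, G or T, then A or G, then AC, then A, C or T) stood in 100% of the windows, as it did in 99.4% of those of all peaks and, on the opposite strand, in 96.6% of those of the pathway genes, so that it separates nothing here. In all, 107 alternatives were computed for 16 results, and 76 moved a count by no more than 1.5 times or kept a share within its interval, among them each alternative that joined near peaks or left out introns, the LPS-down table as it stands and, chosen after seeing the data, omission of the most frequent score. Joining near peaks changed no count or 3′UTR share, so that alternative varied nothing here. No paired analysis was possible because the tables hold 1 value per comparison, and for the same reason no replicate could be left out. Read depth is unknown, and a recurrent LLR gives no order among the peaks that share it.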

Other observations

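Of 70 other genes of these pathways counted by the same rule, 39 held a peak. No share over all annotated genes stands beside this count. In LPS vs Veh, 23 of the 39 held an up peak (59.0%, against 46.7% of all genes) and 9 of the 22 on chromosomes 1 to 9 a down peak (40.9%, against 48.0%). In Mel+LPS vs LPS, 18 of the 39 held an up peak (46.2%, against 55.6%) and 17 a down peak (43.6%, against 37.6%). The highest LLR up in LPS vs Veh was that of Cd40, a TNF receptor family member of antigen-presenting cells, in its 3′UTR (chr2:165069704-165069855, LLR 13.4). Next was Tlr8, a receptor for single-stranded RNA, with a peak classed as 5′UTR (LLR 13.1). The same Cd40 position was down in Mel+LPS vs LPS (LLR 5.94). The highest down in LPS vs Veh were Ptgs2, which encodes the inducible cyclooxygenase, in its 3′UTR (chr1:150107606-150107846, LLR 21.3) and Nod2, an intracellular sensor of bacterial peptidoglycan, in exon 4 (chr8:88663788-88663959, LLR 10.6). The Nod2 position was up in Mel+LPS vs LPS (chr8:88663783-88664002, LLR 18.96), the highest of these genes there, and Tlr5, the flagellin receptor, had the highest LLR down in Mel+LPS vs LPS (8.19). Both comparisons use the same LPS libraries.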
